A study of Mus musculus with 60 samples.

Results

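The Hoxa cluster is the set of Hox genes on mouse chromosome 6, and 8 of its genes were followed here (Hoxa2, Hoxa3, Hoxa4, Hoxa5, Hoxa6, Hoxa7, Hoxa9 and Hoxa10) among 55487 genes and 1146 repeat subfamilies counted in 60 RNA libraries. They were chosen by name and not by their values, and all 8 were present in both count tables. The cells were E14JU mouse embryonic stem cells in which POLE4 carried a degron tag. POLE4 is a histone-binding subunit of the leading strand polymerase, and MCM2-2A is a mutant of the replicative helicase subunit MCM2 known for impaired transfer of parental histones to the lagging strand. All 20 groups carried the tag, so Ctrl means tagged cells given DMSO and not unmodified cells. Ctrl and dPOLE4 were tagged cells given DMSO or 1 µM dTAG, and Ctrl MCM2-2A and dPOLE4 MCM2-2A were the same treatments in tagged cells that also carried MCM2-2A. Each was sampled after 24 h of treatment in serum and LIF (T0). Further samples were taken once retinoic acid (RA) had been present for 12 h (T12), for 24 h (T24) or for 60 h (T60). The medium with RA (1 µM) held no LIF, so a response to RA cannot be told apart from a response to loss of LIF. A second experiment, without RA, sampled the same 4 kinds of cells after 96 h of treatment. There were 3 libraries in each group. The titles, the time labels and the published methods gave 12, 24 and 60 h. The treatment text in the sample records names 24, 48 and 60 h, and the titles were followed. Whether dTAG stayed on during RA was not stated. Each background had 1 line code in the titles, and the number of clones was not stated. An effect of MCM2-2A therefore cannot be told apart from another difference between the lines. The methods call the 3 libraries of a group biological replicates without saying whether their cultures were separate from the start of treatment, and p-values measure the spread between them. In bulk RNA, fewer cells that express a gene and less RNA per cell cannot be told apart. dTAG removes protein, so RNA levels do not check the depletion.

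Hox genes encode homeodomain transcription factors that give cells their position along the body axis. In vertebrates they lie in clusters, where genes at the 3′ end (low numbers) act in anterior regions and are switched on early, and genes at the 5′ end (high numbers) act in posterior regions and are switched on later. In stem cells the clusters are covered by the Polycomb mark H3K27me3, and RA, through its nuclear receptors, is a classical inducer of the 3′ genes. The comparisons ask how the cluster responds to RA without LIF in these lines, and whether loss of a histone recycling pathway changes that response.

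The depth ranged from 10461077 to 46609151 counts for the 48 libraries with an RA time, and from 7126100 to 23598266 for the 12 taken at 96 h. Pluripotency markers were present before RA, and all 8 were called lower at T24 than at T0 in Ctrl, with a summed level over 8 genes (Pou5f1, Nanog, Sox2, Zfp42, Esrrb, Klf4, Tfcp2l1 and Dppa3) of 3014.7 to 3162 CPM in Ctrl T0 libraries and 184 to 211 CPM in Ctrl T60 libraries. Levels are given as CPM after TMM scaling, a count relative to the size of its library, and levels of different genes were compared only after division by exon length (CPM per kb).

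All 8 genes lie on the minus strand of chromosome 6 in GRCm38 (mm10). The span of Hoxa3 holds those of Hoxa4, Hoxa5 and Hoxa6. From 3′ to 5′ they are Hoxa2 (ENSMUSG00000014704) at chr6:52162417-52164831, Hoxa3 (ENSMUSG00000079560) at chr6:52169062-52213336, Hoxa4 (ENSMUSG00000000942) at chr6:52189671-52191753, Hoxa5 (ENSMUSG00000038253) at chr6:52201754-52204587, Hoxa6 (ENSMUSG00000043219) at chr6:52206288-52208722, Hoxa7 (ENSMUSG00000038236) at chr6:52214491-52221854, Hoxa9 (ENSMUSG00000038227) at chr6:52223100-52231089 and Hoxa10 (ENSMUSG00000000938) at chr6:52231197-52240854. Several share exon sequence with other transcripts of the cluster. On the same strand, 15% of the exon bases of Hoxa2 and 8.01% of those of Hoxa3 are shared with Gm28308, and 1.52% of those of Hoxa9 with Mir196b. Antisense transcripts cover 25.4% of the exon bases of Hoxa3, 16% of those of Hoxa4 and 20.4% of those of Hoxa7. The libraries kept strand but the setting used in counting was not given in the sources used here, so reads of Hoxa3, Hoxa4 and Hoxa7 and their antisense partners may not be separated. Hoxa5, Hoxa6 and Hoxa10 share no exon base with another annotated gene.

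RefSeq promoters (GRCm38.p6, 250 bases before to 50 after a start) were present for 7 of the 8 genes, with 2 starts for Hoxa10 and none for Hoxa4. Shown here are Hoxa5, the member with the highest level per kb, and the posterior genes Hoxa9 and Hoxa10, which differed between the lines. Capitals mark the CG dinucleotides (CpG-rich promoters are typical Polycomb targets), and each run is written 5′ to 3′ on the minus strand, from chr6:52204538-52204837, chr6:52227321-52227620, chr6:52240805-52241104 and chr6:52234890-52235189.
Hoxa5: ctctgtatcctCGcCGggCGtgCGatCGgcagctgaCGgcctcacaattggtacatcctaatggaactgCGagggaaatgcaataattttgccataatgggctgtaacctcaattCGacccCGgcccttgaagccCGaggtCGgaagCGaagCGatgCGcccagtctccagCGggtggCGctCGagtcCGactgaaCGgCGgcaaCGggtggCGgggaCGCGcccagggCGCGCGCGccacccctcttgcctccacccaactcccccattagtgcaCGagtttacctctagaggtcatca
Hoxa9: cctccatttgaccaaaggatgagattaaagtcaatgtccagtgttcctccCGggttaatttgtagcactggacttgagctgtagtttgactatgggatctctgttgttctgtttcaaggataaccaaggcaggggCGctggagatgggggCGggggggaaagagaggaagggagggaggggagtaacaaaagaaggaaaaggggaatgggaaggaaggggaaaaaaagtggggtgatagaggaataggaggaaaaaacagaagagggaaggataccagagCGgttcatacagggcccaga
Hoxa10, distal start: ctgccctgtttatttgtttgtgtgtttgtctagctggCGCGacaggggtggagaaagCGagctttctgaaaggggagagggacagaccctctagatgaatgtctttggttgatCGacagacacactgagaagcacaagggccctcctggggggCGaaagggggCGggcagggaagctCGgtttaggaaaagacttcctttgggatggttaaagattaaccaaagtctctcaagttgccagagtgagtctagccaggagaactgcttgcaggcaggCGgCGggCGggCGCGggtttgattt
Hoxa10, proximal start: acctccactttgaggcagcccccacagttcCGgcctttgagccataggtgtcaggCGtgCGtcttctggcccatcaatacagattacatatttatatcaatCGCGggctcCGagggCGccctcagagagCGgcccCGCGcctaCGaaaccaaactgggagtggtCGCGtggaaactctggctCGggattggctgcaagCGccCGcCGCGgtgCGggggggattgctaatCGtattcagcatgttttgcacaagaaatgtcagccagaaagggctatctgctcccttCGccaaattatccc

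The Hoxa5 window held 29 CG dinucleotides, a number reached by 12.9% of the 32851 promoters in the table, whereas the Hoxa9 window held 4, a number reached by 68.6%. The distal Hoxa10 start had 12 and the proximal start 21, against a median of 7 over all promoters. The hexamers AGGTCA and AGTTCA, which RA receptors read, were searched on both strands. AGGTCA was found once, in the Hoxa5 window (16.3% of all promoters hold it), and AGTTCA in none of the 8 windows (14% hold it). Direct repeats of these hexamers spaced by 2 or by 5 bases, the usual form of an RA response element, were in none of the 8 windows and in 0.0396% of all promoters for either spacing. TTTATG, a core read by caudal factors, was present at 2 places in the Hoxa7 window (11.9% hold it), and TATAAA once, on the reverse strand of the proximal Hoxa10 window (13.6% hold it). A match in such a short window is a description of its letters.

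Before RA the cluster was nearly silent in every line. Over the 3 Ctrl T0 libraries together, 2 reads were counted for Hoxa2, 6 for Hoxa3, 2 for Hoxa4, 5 for Hoxa5, 1 for Hoxa6, 20 for Hoxa7, 3 for Hoxa9 and 10 for Hoxa10. Hoxa7, a trunk-patterning gene, was the only member that passed the expression filter in a comparison at T0. Its levels were 0.623, 0.285 and 0.202 CPM in Ctrl T0 and 0.744, 0.765 and 0.804 CPM in Ctrl MCM2-2A T0. The MCM2-2A libraries were all higher, but the difference was not called (log2 fold change 1.06, SE 0.40, adjusted p = 0.0489 in edgeR's quasi-likelihood test, where 9.83% of features were called higher and 9.06% lower). A gene is called here when its Benjamini-Hochberg adjusted p over all features tested is below 0.01 and its log2 fold change is beyond 0.58 in size. In dPOLE4 MCM2-2A T0 it was 1.23, 1.01 and 0.718 CPM, which overlapped Ctrl MCM2-2A (0.28, SE 0.30, adjusted p = 0.763, with 0.0715% of features called). At this depth no member could be tested for dPOLE4 against Ctrl at T0, and none in any comparison at 96 h, where the group totals ranged from 0 to 30 reads per member. Hoxa7 at 96 h was 0.701, 0.389 and 0.302 CPM in Ctrl and 0.277, 0.186 and 0.575 CPM in Ctrl MCM2-2A. These groups overlapped, and the higher mean was that of Ctrl. Hoxa10 at 96 h had 14 reads in Ctrl, 12 in dPOLE4, 20 in Ctrl MCM2-2A and 22 in dPOLE4 MCM2-2A. In CPM, Hoxa10 at 96 h was 0.250, 0.334 and 0.129 in Ctrl and 0.416, 0.559 and 0.418 in Ctrl MCM2-2A. Hoxa3 at 96 h was 0.300, 0.167 and 0 CPM in Ctrl and 0.555, 0.621 and 0.470 CPM in Ctrl MCM2-2A. Neither gene overlapped between these groups, and the share of all features without overlap at 96 h was not counted. Differences between the lines before RA could thus not be tested for most members.

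Every member that could be tested was called higher after RA, at each time and in each line. In Ctrl, 7 of 8 genes were tested at T12 and all 7 were called higher than at T0 (7.24% of all features tested were called higher), 8 of 8 at T24 (13.5%), and 7 of 7 tested at T60 (26.9%). Hoxa9 at T12 and Hoxa10 at T60 did not pass the filter. In dPOLE4, 6 of 6 tested at T12 (7.18%), 8 of 8 at T24 (11.8%) and 7 of 7 tested at T60 (25.6%) were called higher. In Ctrl MCM2-2A all 8 were called higher at T12 (5.20%), T24 (14.4%) and T60 (26.3%), and so were all 8 in dPOLE4 MCM2-2A at T12 (4.30%), T24 (10.9%) and T60 (23.0%). The tested members passed the filter through the RA group, so these counts describe the genes that were measurable.

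Hoxa5, which acts in the neck and thorax and in lung development, had the highest level of the cluster. In Ctrl it was 0.0567, 0 and 0.202 CPM at T0, 17.1, 21.1 and 21.0 CPM at T12 and 51.6, 49.6 and 55.9 CPM at T24. The groups at the 3 times did not overlap, and T24 was above T0 by a log2 fold change of 9.08 (SE 0.20, adjusted p = 1.63e-13, edgeR). Hoxa3, an anterior gene needed for the thymus and parathyroid, was 0.113, 0.057 and 0.152 CPM at T0 and 23.7, 25.4 and 32.4 CPM at T24 in Ctrl, a log2 fold change of 7.88 (SE 0.25, adjusted p = 7.06e-12). Hoxa7 went from the T0 levels above to 15.4, 14.6 and 16.9 CPM at T24 (log2 fold change 5.40, SE 0.21, adjusted p = 4.24e-11). Hoxa10, which patterns the lumbar region and the limb, went from 0.34, 0.171 and 0.0505 CPM to 3.30, 2.40 and 3.36 CPM (log2 fold change 4.01, SE 0.37, adjusted p = 5.27e-07). For these genes no T24 library overlapped a T0 library. Hoxa2, Hoxa4, Hoxa6 and Hoxa9 had 3 reads or fewer at T0 in Ctrl, so no fold is given for them.

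**Figure D1:**
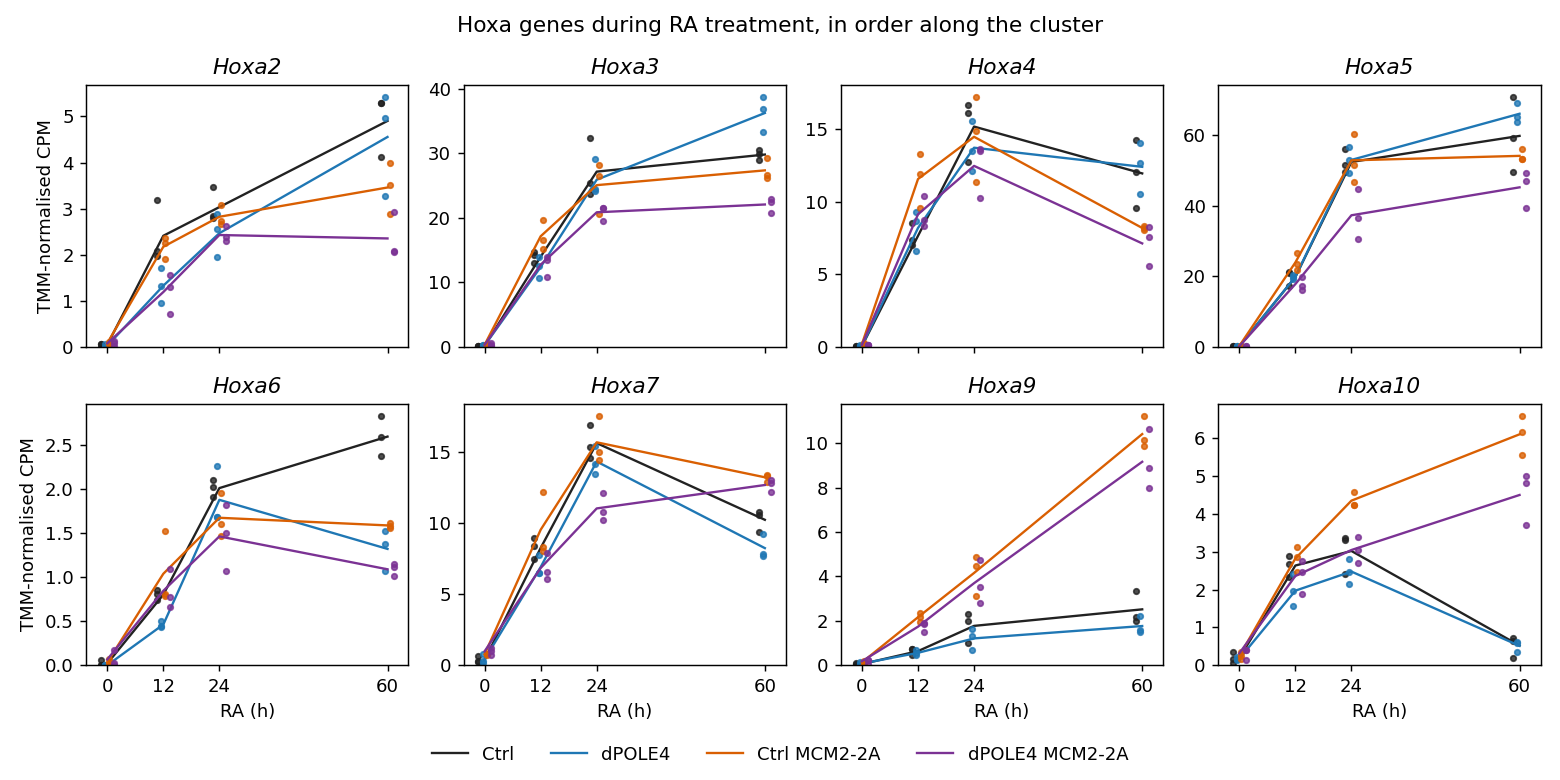
Level of each Hoxa gene (TMM-normalised CPM, linear axes that start at 0) against hours of RA, with 3 libraries per group as points, shifted sideways by line, and lines through the group means. All genes start near 0. The T24 means of Hoxa3 and Hoxa5 are 91.1% and 87.6% of their T60 means in Ctrl, and 71.4% and 80.2% in dPOLE4. Hoxa9 and Hoxa10 end at 10.4 and 6.11 CPM in Ctrl MCM2-2A but at 2.52 and 0.520 CPM in Ctrl.

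Per kb of exon, the order of levels in Ctrl at T24 was Hoxa5 (27.9 ± 1.72 CPM per kb, SD, n = 3), Hoxa4 (9.53 ± 1.35), Hoxa7 (5.44 ± 0.407), Hoxa3 (4.52 ± 0.762), Hoxa6 (2.30 ± 0.115), Hoxa2 (1.71 ± 0.211), Hoxa10 (0.924 ± 0.165) and Hoxa9 (0.318 ± 0.120). Neighbours in this order were apart by more than their SDs, except Hoxa7 and Hoxa3. The order of levels was therefore not the order of the genes along the cluster. In Ctrl at T60 the posterior genes were lowest, with Hoxa9 at 0.451 ± 0.129 and Hoxa10 at 0.159 ± 0.0881 CPM per kb. In Ctrl MCM2-2A at T60 they were at 1.87 ± 0.129 and 1.87 ± 0.158 CPM per kb, and their SD ranges overlapped those of Hoxa6 (1.82 ± 0.0302) and Hoxa2 (1.95 ± 0.313).

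The timing was read as the share of each gene's own highest group mean, without a test. In Ctrl, the share reached at T12 was 49.1% for Hoxa2, 46.8% for Hoxa3, 50.3% for Hoxa4, 33.0% for Hoxa5, 30.9% for Hoxa6, 52.8% for Hoxa7, 25.2% for Hoxa9 and 87.3% for Hoxa10. The shares did not fall steadily from 3′ to 5′, since Hoxa7 and Hoxa10 were above all members 3′ of them. The highest Hoxa10 mean in Ctrl came at T24, and the T60 mean was 17.2% of it. In Ctrl MCM2-2A, Hoxa9 reached 20.8% at T12 and 39.9% at T24, and Hoxa10 46.2% and 71.3%, and both were highest at T60. Hoxa4 was highest at T24 in all 4 lines, and Hoxa3, Hoxa5 and Hoxa9 were highest at T60 in all 4.

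**Figure D2:**
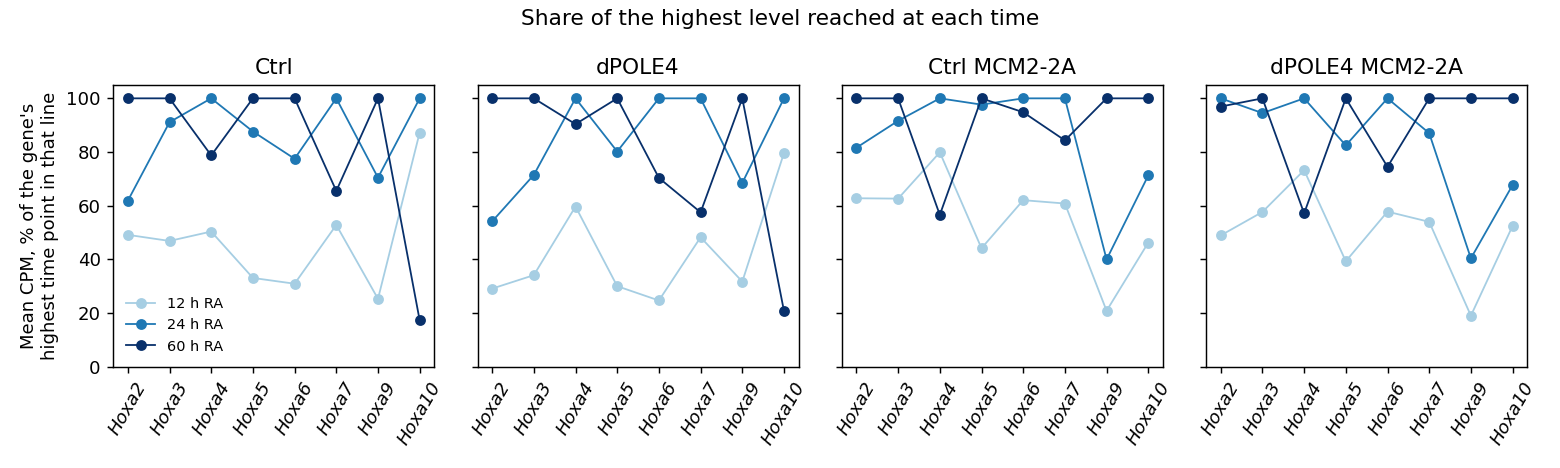
Group mean of each gene as a percentage of its highest time point in the same line, for 12, 24 and 60 h of RA, with genes in order from 3′ (left) to 5′ (right) and lines that only join the genes. At 60 h the Hoxa10 mean is 17.2% of its highest in Ctrl and 20.7% in dPOLE4 but 100% in both MCM2-2A lines.

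Between T24 and T60 the cluster changed unevenly. In Ctrl, 1 member was called higher (19.8% of all features) and 2 lower (15.9%). Hoxa10 was 3.30, 2.40 and 3.36 CPM at T24 and 0.730, 0.639 and 0.192 CPM at T60, with no overlap, and fell by 2.42 on the log2 scale (SE 0.33, adjusted p = 1.40e-05, edgeR). Hoxa7 fell by 0.59 (SE 0.11, adjusted p = 1.73e-04), close to the size limit, and Hoxa2, the hindbrain gene at the anterior border, rose by 0.73 (SE 0.18, adjusted p = 0.00205). In dPOLE4 the same 3 genes were called, Hoxa2 up by 0.89 (17.9% of all features were called higher), Hoxa7 down by 0.80 and Hoxa10 down by 2.27 (14.1% called lower). The 2 comparisons share no library. The call of Hoxa2 in Ctrl was lost with DESeq2 and without Ctrl T24 replicate 1 or 2 or Ctrl T60 replicate 1 (adjusted p up to 0.0118), and that in dPOLE4 without dPOLE4 T60 replicate 2 or 3 (up to 0.0222). The call of Hoxa7 in Ctrl missed the size limit without Ctrl T24 replicate 3 (-0.56) or Ctrl T60 replicate 2 (-0.54).

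In the MCM2-2A lines other genes were called from T24 to T60. Hoxa9 rose in both, by a log2 fold change of 1.31 in Ctrl MCM2-2A (SE 0.14, adjusted p = 3.83e-07, with 18.2% of features called higher) and of 1.29 in dPOLE4 MCM2-2A (SE 0.19, adjusted p = 1.83e-04, with 15.4%). Hoxa4, a cervical gene, fell by 0.80 in Ctrl MCM2-2A (SE 0.13, adjusted p = 3.29e-05, with 13.4% called lower) and by 0.80 in dPOLE4 MCM2-2A (SE 0.17, adjusted p = 0.00221, with 9.93%). Hoxa10 did not pass the call rule in either line. Its values were 4.57, 4.24 and 4.24 CPM at T24 and 6.16, 5.56 and 6.59 CPM at T60 in Ctrl MCM2-2A, which did not overlap (log2 fold change 0.49, SE 0.14, adjusted p = 0.00565). In dPOLE4 MCM2-2A they were 2.7, 3.40 and 3.04 CPM at T24 and 3.70, 5.00 and 4.81 CPM at T60 (log2 fold change 0.58, SE 0.18, adjusted p = 0.0186), again without overlap.

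**Figure D3:**
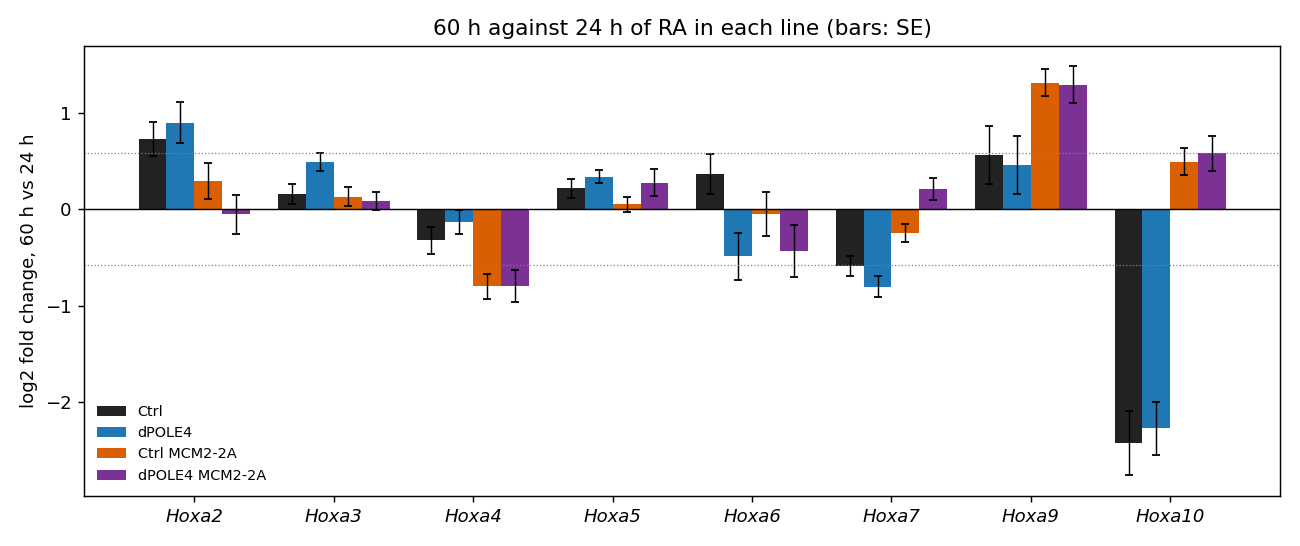
Log2 fold change from 24 h to 60 h of RA for each gene in each line, with SE as error bars, 3 libraries against 3, and dotted lines at 0.58 and -0.58. Hoxa10 goes down by 2.42 in Ctrl and 2.27 in dPOLE4, and its bars point up in the MCM2-2A lines.

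The difference in this change was tested with all 4 groups in the fit. For Ctrl MCM2-2A minus Ctrl, 1 of 8 members was called, Hoxa10, by 2.90 on the log2 scale (SE 0.34, adjusted p = 4.99e-06), where 4.32% of features were called in this direction and 3.71% in the other. For dPOLE4 MCM2-2A minus Ctrl, which uses the same Ctrl libraries, 2 of 8 were called, Hoxa10 by 2.99 (SE 0.37, adjusted p = 3.83e-05) and Hoxa7 by 0.79 (SE 0.14, adjusted p = 0.00113), where 3.84% of features were called in this direction and 3.79% in the other. For Hoxa9 no difference was called (0.72, SE 0.33, adjusted p = 0.129 for Ctrl MCM2-2A minus Ctrl).

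Against Ctrl at the same time, Hoxa9 was higher in both MCM2-2A lines at T12, T24 and T60, and Hoxa10 in both at T60. Hoxa9, which with Hoxa10 belongs to the AbdB-like class of Hox genes and is expressed in posterior and in blood-forming cells, was higher in Ctrl MCM2-2A at all 3 RA times. At T12 its levels were 0.712, 0.739 and 0.455 CPM in Ctrl and 1.94, 2.18 and 2.37 CPM in Ctrl MCM2-2A, the mutant line, (log2 fold change 1.74, SE 0.26, adjusted p = 4.55e-04). At T24 they were 2.29, 1.02 and 2.01 CPM against 4.87, 4.48 and 3.12 CPM (log2 fold change 1.28, SE 0.25, adjusted p = 3.89e-04). At none of these times did the groups overlap. At T60 they were 3.34, 2.19 and 2.01 CPM in Ctrl and 10.1, 11.2 and 9.86 CPM in the mutant line (log2 fold change 2.01, SE 0.18, adjusted p = 4.57e-07).

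Hoxa10 was close in the 2 lines at T12, with 2.34, 2.90 and 2.67 CPM in Ctrl and 2.46, 2.87 and 3.13 CPM in the mutant line (log2 fold change 0.11, SE 0.18, adjusted p = 0.668). At T24 the MCM2-2A libraries were all higher but the call was not made (log2 fold change 0.56, SE 0.17, adjusted p = 0.0117). At T60 the groups were 0.730, 0.639 and 0.192 CPM in Ctrl, from 21 reads in all, and 6.16, 5.56 and 6.59 CPM in Ctrl MCM2-2A, from 431 reads. This was a log2 fold change of 3.46 (SE 0.28, adjusted p = 1.90e-07), an 11-fold difference. In counts of members, 2 of 8 were called higher at T12 (Hoxa9 and Hoxa4, with 6.95% of features called higher), 1 at T24 (Hoxa9, 9.71%) and 2 at T60 (Hoxa9 and Hoxa10, 8.97%), and none lower (7.58%, 7.60% and 7.93% of features were called lower). Hoxa4 at T12 was 6.99, 8.56 and 7.39 CPM in Ctrl and 9.54, 11.9 and 13.3 CPM in the mutant line, by a log2 fold change of 0.61 (SE 0.14, adjusted p = 0.00680), near the size limit. Without Ctrl T12 replicate 1 or 3, or without Ctrl MCM2-2A T12 replicate 2 or 3, 1 member was called at T12.

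**Figure D4:**
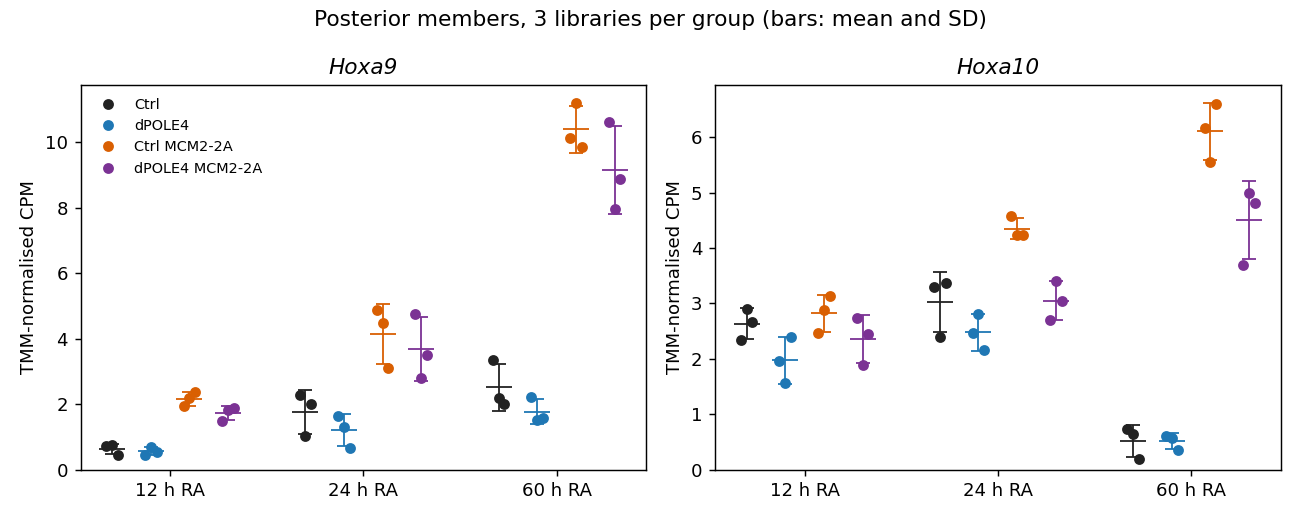
Hoxa9 and Hoxa10 level (TMM-normalised CPM, axes from 0) in each of 3 libraries per group at 12, 24 and 60 h of RA, with bars for the mean and SD. Hoxa9 is higher in both MCM2-2A lines at all 3 times, and Hoxa10 is apart at 60 h, where Ctrl libraries reach at most 0.730 CPM and the lowest MCM2-2A library is at 3.70 CPM.

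None of the other 6 members was called at T60 in Ctrl MCM2-2A against Ctrl. Hoxa2 was 5.29, 5.30 and 4.12 CPM in Ctrl and 3.51, 2.88 and 3.98 CPM in the mutant line (log2 fold change -0.52, SE 0.18, adjusted p = 0.0336). Hoxa4 was 12, 14.2 and 9.59 CPM against 8.06, 8.34 and 8.17 CPM (-0.54, SE 0.14, adjusted p = 0.00549). Hoxa6, which patterns the thorax, was 2.37, 2.83 and 2.59 CPM against 1.56, 1.62 and 1.58 CPM (-0.68, SE 0.22, adjusted p = 0.0199). In these 3 genes the groups did not overlap, as in 52.4% of all features, and none met both parts of the call rule. Hoxa4 met the adjusted p and missed the size, and it was called when Ctrl T60 replicate 3 was left out (-0.66). Hoxa7 was 10.8, 9.41 and 10.5 CPM against 13.4, 13.4 and 12.9 CPM (0.38, SE 0.10, adjusted p = 0.00914), also short of the size limit. Hoxa3 (-0.12, adjusted p = 0.253) and Hoxa5 (-0.14, adjusted p = 0.267) overlapped between the lines. The median over the 8 members was -0.13, against 0.01 over all features tested.

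The same 2 posterior genes were called higher in dPOLE4 MCM2-2A at T60 when set against the same Ctrl libraries. Hoxa9 was 10.6, 7.97 and 8.89 CPM (log2 fold change 1.83, SE 0.21, adjusted p = 9.62e-06) and Hoxa10 3.70, 5.00 and 4.81 CPM (3.03, SE 0.32, adjusted p = 5.15e-06). Here 3 members were called lower. Hoxa2 was 2.91, 2.07 and 2.06 CPM (-1.05, SE 0.21, adjusted p = 0.00119), Hoxa6 1.15, 1.12 and 1.01 CPM (-1.22, SE 0.25, adjusted p = 0.00121) and Hoxa4 7.55, 5.58 and 8.25 CPM (-0.73, SE 0.18, adjusted p = 0.00478). Groups did not overlap in any of the 8 members, nor in 53.2% of all features, and for Hoxa5 the nearest libraries were both at 49.4 CPM. The call of Hoxa4 was lost without Ctrl T60 replicate 1 or 2 and without dPOLE4 MCM2-2A T60 replicate 2 (adjusted p up to 0.0277). Of 8 members 2 were thus called higher (11.6% of all features) and 3 lower (10.2%), and the median over the 8 was -0.41 (0.02 over all features). At T12 and T24 the 1 member called against Ctrl was Hoxa9, higher by a log2 fold change of 1.44 at T12 (SE 0.26, adjusted p = 9.33e-04, with 9.27% of features called higher and 8.74% lower) and 1.11 at T24 (SE 0.27, adjusted p = 0.00508, with 11.2% and 8.43%). Without Ctrl T24 replicate 2 or without dPOLE4 MCM2-2A T24 replicate 1, no member was called at T24, and without dPOLE4 MCM2-2A T24 replicate 3 Hoxa5 (-0.61) was called in place of Hoxa9. Hoxa10 was not called at T12 (-0.14, SE 0.19, adjusted p = 0.601) or at T24 (0.03, SE 0.18, adjusted p = 0.903).

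**Figure D5:**
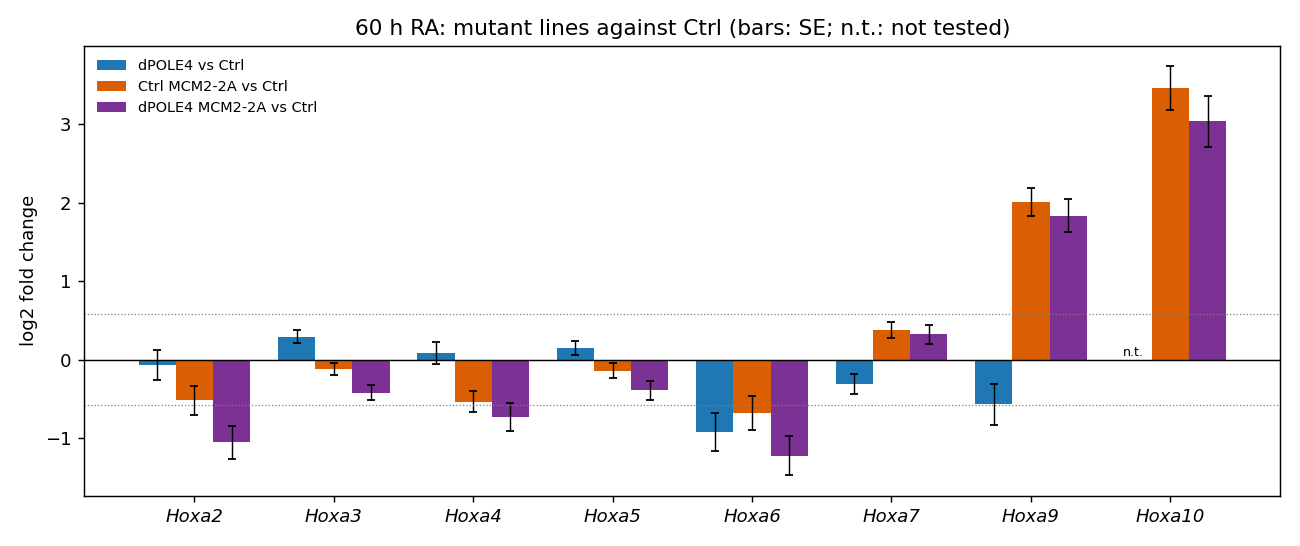
Log2 fold change against Ctrl at 60 h of RA for each gene in order along the cluster, in dPOLE4, Ctrl MCM2-2A and dPOLE4 MCM2-2A, with SE as error bars, 3 libraries against 3, and dotted lines at 0.58 and -0.58. All 3 comparisons use the same Ctrl libraries, and Hoxa10 was not tested in dPOLE4. The values for Hoxa9 and Hoxa10 lie at 1.83 to 3.46 in both MCM2-2A lines. Those for Hoxa2, Hoxa3, Hoxa4, Hoxa5 and Hoxa6 are below 0 in both, and Hoxa6 is also below 0 in dPOLE4 (-0.92).

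Depletion of POLE4 by itself gave no call in the cluster. For dPOLE4 against Ctrl edgeR called 0 of 8 members at T12 (0% of all features called), 0 of 8 at T24 (0%) and 0 of 7 tested at T60 (0.193%), and DESeq2 also called 0 at each time. The median log2 fold change over the members tested was -0.21 at T12, -0.12 at T24 and -0.07 at T60, against medians over all features of 0.00. At an unadjusted p under 0.05 there were 2, 0 and 4 members, against 6.42%, 7.60% and 14.3% of all features. The largest was Hoxa6 at T60, with 2.37, 2.83 and 2.59 CPM in Ctrl and 1.07, 1.38 and 1.52 CPM in dPOLE4, groups that did not overlap (-0.92, SE 0.25, adjusted p = 0.0761). Hoxa3 was 30.5, 30.0 and 29.0 CPM in Ctrl and 36.9, 33.2 and 38.7 CPM in dPOLE4 (0.29, SE 0.08, adjusted p = 0.0826). Hoxa9 was 2.21, 1.51 and 1.58 CPM and Hoxa10 0.609, 0.577 and 0.351 CPM in dPOLE4 at T60, and both overlapped Ctrl.

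In the MCM2-2A background, depletion also gave 0 calls of 8 at T12 (0.404% of all features called), T24 (1.02%) and T60 (2.25%) with edgeR, and 0 with DESeq2. The 8 log2 fold changes were all below 0 at each of the 3 times. The 8 genes were measured in the same libraries, so their signs are not independent, and the share of all features below 0 was not counted. At an unadjusted p under 0.05 there were 5, 4 and 5 members, against 17.6%, 21.1% and 23.3% of all features. The median was -0.37 at T12, -0.24 at T24 and -0.28 at T60, against medians over all features of 0.00. Hoxa7 at T24 had the lowest adjusted p, with 14.5, 17.6 and 15.0 CPM in Ctrl MCM2-2A and 10.2, 12.1 and 10.8 CPM in dPOLE4 MCM2-2A (-0.52, SE 0.11, adjusted p = 0.0127). Hoxa5 at T24 was 46.6, 51.6 and 60.3 CPM against 36.6, 30.5 and 44.6 CPM (-0.48, SE 0.12, adjusted p = 0.0311), and it was called when dPOLE4 MCM2-2A T24 replicate 3 was left out (-0.64). Hoxa10 at T60 was 6.16, 5.56 and 6.59 CPM against 3.70, 5.00 and 4.81 CPM (-0.43, SE 0.15, adjusted p = 0.108). The effect of depletion did not differ between the backgrounds by the call rule in any of the 8 members at T12 (0.0159% of all features called), T24 (0.0351%) or T60 (0.1%). At an unadjusted p under 0.05 there were 1, 2 and 2 members, against 7.40%, 8.81% and 10.1% of all features, and the lowest adjusted p was that of Hoxa3 at T60 (-0.59, SE 0.11, adjusted p = 0.0257). DESeq2 called this 1 gene at T60 and 0 members at T12 and T24.

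The paralogous Hoxb genes, the cluster most like Hoxa, gave a reference. In Ctrl at T24, 9 of 9 were called higher than at T0 (13.5% of all features). Their median log2 fold change was 7.49, against 0.00 over all features. At T60, 6 of 9 were called lower in Ctrl MCM2-2A than in Ctrl (7.93%) and 0 higher (8.97%), with a median of -0.73 (0.01 over all features). At T12 the same comparison had 4 of 9 called higher (6.95%) and 0 lower (7.58%), with a median of 0.49. At T24 0 of 9 were called by edgeR (9.71% of features higher and 7.60% lower), with a median of -0.04. Against Ctrl MCM2-2A, dPOLE4 MCM2-2A had 1 of 9 called lower at T12 (0.404% of all features called in either direction). It had 7 called lower at T24 (1.02%, median -0.78) and 6 at T60 (2.25%, median -0.65), and 0 higher. At T60 Hoxb9, the paralogue of Hoxa9, was 59.2 ± 6.01 CPM in Ctrl and 35.5 ± 1.94 CPM in Ctrl MCM2-2A (SD, n = 3), a log2 fold change of -0.73 (SE 0.08, adjusted p = 5.21e-06). The posterior Hoxb13 was 9.34 ± 0.139 and 8.67 ± 1.07 CPM, a log2 fold change of -0.09 (SE 0.13, adjusted p = 0.609). Hoxb9 and Hoxb13 were chosen after their values were seen. A difference between the clusters was not tested.

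Of 11 other transcripts listed in the Hoxa cluster 10 were matched by symbol. In Ctrl MCM2-2A against Ctrl at T60, 5 of them were tested, with 0 called higher (8.97% of all features) and 1 lower (7.93%). Hoxaas2, an antisense transcript that overlaps Hoxa3, was the one called (log2 fold change -0.88, SE 0.17, adjusted p = 7.71e-04). Hotairm1, the long noncoding RNA at the 3′ end of the cluster, was 0.322 ± 0.143 CPM in Ctrl at T0, 13.6 ± 0.292 CPM at T24 and 17.9 ± 1.62 CPM at T60 (SD, n = 3). At T60 it was 12.7 ± 0.247 CPM in the mutant line (log2 fold change -0.50, SE 0.10, adjusted p = 7.45e-04), short of the size limit. Hoxa11 and Hoxa13, 5′ of Hoxa10, had few reads, with 2 and 16 over the 3 Ctrl T60 libraries and 42 and 58 reads over the 3 Ctrl MCM2-2A T60 libraries. Hoxa13 was 0.428 ± 0.338 and 0.835 ± 0.428 CPM in the 2 lines and was not called (0.96, SE 0.53, adjusted p = 0.162), and Hoxa11 was not tested in this comparison. In dPOLE4 MCM2-2A against Ctrl at T60, 7 of the list were tested, with 2 called higher, Hoxa11 (77 reads against 2, adjusted p = 9.09e-05) and its antisense transcript Hoxa11os (39 reads against 0, adjusted p = 2.72e-04), and 2 lower, Hoxaas2 (-1.31) and Hoxaas3 (-1.33). Of all features, 11.6% were called higher and 10.2% lower in that comparison. Hoxa11 and Hoxa11os were also called for the difference of the T24 to T60 change between these lines (adjusted p = 0.00954 and 0.00988). For that difference 3.84% of all features were called above 0 and 3.79% below 0. Among 17 protein-coding genes that start within 2 Mb outside the cluster, 15 were tested in it, with 1 called higher and 1 lower and a median of 0.16.

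The caudal factors Cdx1, Cdx2 and Cdx4 activate posterior Hox genes in the embryo. In Ctrl all 3 were called lower at T60 than at T24 (15.9% of all features), with a median of -2.64. In Ctrl MCM2-2A against Ctrl at T60, 2 of 2 tested were called higher, Cdx1 by a log2 fold change of 2.14 (SE 0.14, adjusted p = 2.86e-08, 12.3 ± 3.58 CPM in Ctrl and 55.1 ± 4.30 CPM in Ctrl MCM2-2A) and Cdx2 by 1.44 (SE 0.17, adjusted p = 9.63e-06, 2.87 ± 0.450 and 7.69 ± 0.876 CPM). Here 8.97% of all features were called higher and 7.93% lower. Before T60 the list went otherwise. In the same comparison 0 were called higher and 2 lower at T0 (median -1.35) and at T12 (median -1.26). The 2 were Cdx2 and Cdx4 both times. Of all features, 9.83% were called higher and 9.06% lower at T0, and 6.95% and 7.58% at T12. At T24 Cdx1 was called higher (1.03, 9.71% of all features) and Cdx2 (-0.60) and Cdx4 (-1.44) lower (7.60%). The change from T24 to T60 differed between Ctrl MCM2-2A and Ctrl in all 3 caudal factors, with a median of 2.03. For this difference 4.32% of all features were called above 0 and 3.71% below 0. The part of the caudal factors in the levels of Hoxa9 and Hoxa10 was not tested.

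The TALE cofactors, homeodomain partners of Hox proteins on DNA, were called lower in 4 of 7 at T60 in Ctrl MCM2-2A and higher in 0 (median -0.64), with Meis1 at -1.57 (SE 0.07, adjusted p = 7.33e-10) and Meis2 at -1.18 (SE 0.06, adjusted p = 6.81e-09). Of 13 RA receptors and RA enzymes, 1 was called higher, Rarg (1.46, SE 0.08, adjusted p = 6.81e-09), and 4 lower, among them Aldh1a2, which makes RA from retinal, (-1.11, SE 0.22, adjusted p = 7.86e-04) and the RA-binding protein Crabp1 (-1.09, SE 0.19, adjusted p = 3.44e-04). Of 15 Polycomb and trithorax genes, 1 was called higher, Cbx7 (0.72, SE 0.06), and 2 lower, Suz12 (-0.67, SE 0.06) and Pcgf2 (-0.60, SE 0.07), with a median over the 15 of -0.07. In this comparison 8.97% of all features were called higher and 7.93% lower, with a median of 0.01. For these 3 the adjusted p were 4.09e-07, 1.18e-06 and 7.86e-06.

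The summed level of the 8 pluripotency markers at T60 was higher in both MCM2-2A lines than in Ctrl, as were Hoxa9 and Hoxa10, and between the MCM2-2A lines it was higher in dPOLE4 MCM2-2A, where Hoxa9 and Hoxa10 had lower means that were not called. It was 184 to 211 CPM in Ctrl and 197 to 222 CPM in dPOLE4, 417 to 533 CPM in Ctrl MCM2-2A and 562 to 746 CPM in dPOLE4 MCM2-2A, and 6 of 8 were called higher in Ctrl MCM2-2A than in Ctrl and 0 lower. The 7 primitive endoderm markers summed to 1099 to 1375 CPM in Ctrl and 1608 to 1820 CPM in Ctrl MCM2-2A, where 4 of 7 were called higher, and to 1256 to 1373 CPM in dPOLE4 MCM2-2A. The 7 neural markers summed to 299 to 332 CPM in Ctrl and 209.5 to 242 CPM in Ctrl MCM2-2A, with 3 called lower and 1 higher. In dPOLE4 MCM2-2A they summed to 160 to 176 CPM. Of all features, 8.97% were called higher and 7.93% lower in Ctrl MCM2-2A than in Ctrl at T60. The 5 mesoderm markers summed to 11 to 14 CPM in Ctrl, 15.4 to 19.5 CPM in Ctrl MCM2-2A and 23.1 to 29.8 CPM in dPOLE4 MCM2-2A. At T0 the mesoderm sums were 53.0 to 68.1 CPM in Ctrl, 15.8 to 19.2 CPM in Ctrl MCM2-2A and 21.0 to 24.0 CPM in dPOLE4 MCM2-2A. Every marker had reads in all 4 T60 groups, the fewest being 1 read for Mesp1. The part of these cell states in the levels of Hoxa9 and Hoxa10 was not tested.

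Over the 16 groups of the RA experiment, the group means of 6 members followed the mean pattern of the 8 closely, with Pearson r from 0.976 for Hoxa2 and Hoxa6 to 0.993 for Hoxa7, whereas r was 0.908 for Hoxa9 and 0.856 for Hoxa10. Hoxa3 and Hoxa5 were the nearest pair (r = 0.998). Among 17572 other genes compared, the 5 most like the mean pattern were Gm27861 (r = 0.987), Hoxb1 (0.984), Hotairm1 (0.984), Sertad4 (0.983) and Arg1 (0.982). These values describe 16 group means that share the RA time course, and all of them are low before RA and higher after it.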

How the data were processed

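For each library the authors deposited raw read counts per gene and per repeat subfamily, neither normalized nor pooled. Per the labels and the methods, reads were trimmed with cutadapt 4.2, aligned with STAR to mm10 and counted with TEcount on GENCODE M25, and the counting strand was not given in the sources used here. Symbols (55227 matched), positions and exon lengths came from a GENCODE M21 annotation of the same build.

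The tests used edgeR 4.0.16 under R 4.3.3. Only the groups compared entered a fit, low features were removed by filterByExpr (10 as least count, 15 as least total), and the rest were scaled with TMM and tested with the quasi-likelihood F test, and p-values were adjusted over all features tested. DESeq2 1.42.0 was an alternative. SEs were derived from the F statistic. The procedure was tested on simulated data. Counting error and the spread between libraries both enter the SEs, and low genes such as Hoxa10 at T60 in Ctrl are the least precise. A gene with 0 reads in a group allows up to 3.

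All 8 members are named whatever their values. Genes of other lists are named if they lie in the cluster or are among the 2 largest called changes in either direction, and exceptions are marked. Members, lists and tests were chosen with earlier results of these data known.

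Replicate numbers are shared by the groups. They paired libraries (r above 0.1 in all 3 pairs) in 5 of 34 two-group comparisons, at T0 and 96 h, where no member was called with or without the block.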

Additional observations from a re-analysis of the deposited data

Results flagged for a closer look

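The change from T24 to T60 differed between lines in 3 cases by the test of the difference itself. Hoxa10 differed by 2.90 on the log2 scale between Ctrl MCM2-2A and Ctrl (SE 0.34, adjusted p = 4.99e-06, edgeR), since every Ctrl library was lower at T60 than at T24 and every Ctrl MCM2-2A library was higher. Hoxa10 also differed by 2.99 between dPOLE4 MCM2-2A and Ctrl (SE 0.37, adjusted p = 3.83e-05), and Hoxa7 by 0.79 in the same comparison (SE 0.14, adjusted p = 0.00113). The comparisons use the same Ctrl libraries. Over the alternatives tried, the first value ranged from 2.58 to 3.27 and the second from 2.66 to 3.36, and both stayed past the threshold in each.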

How the results depend on the processing

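Each of 39 counts of called members was recomputed with 8 other settings and without each library in turn. Of 576 values, 559 were within 1.5 times the main count, 17 were not, and no called member changed sign. Of 25 member calls between lines, between T24 and T60 or between changes, 18 held in every setting run, Hoxa9 and Hoxa10 at T60 against Ctrl among them. The 7 that did not were Hoxa2 and Hoxa7 from T24 to T60 in Ctrl, Hoxa2 in dPOLE4 and Hoxa4 in dPOLE4 MCM2-2A over the same times, Hoxa4 in Ctrl MCM2-2A at T12, and Hoxa9 at T24 and Hoxa4 at T60 in dPOLE4 MCM2-2A against Ctrl. Without a size limit, 5 members were called for dPOLE4 T60 against T24 (3 in the report). For Ctrl MCM2-2A against Ctrl at T60 there were 4 (2), and for dPOLE4 MCM2-2A against Ctrl at T24 there were 3 (1). The share of all features called without that limit was not counted, so these counts have no background. The replicate block gave 1 member for Ctrl MCM2-2A against Ctrl at T12 (2 in the report) and 2 for dPOLE4 MCM2-2A against Ctrl at T12 (1), and these numbers did not pair the libraries. In the latter, no filter and all groups in 1 fit also gave 2, the added gene being Hoxa2. DESeq2 and no filter each gave 1 for the difference of the depletion effect at T60 (0), which was Hoxa3. Leaving out a library gave 1 to 2 for dPOLE4 MCM2-2A T60 against T24, where 1 remained without its T24 replicate 3, 1 to 2 for Ctrl MCM2-2A against Ctrl at T12, 0 to 1 for dPOLE4 MCM2-2A against Ctrl MCM2-2A at T24 and 0 to 1 for dPOLE4 MCM2-2A against Ctrl at T24. The cause of these moves was not tested. Low counts at T0 and 96 h limit what can be seen before RA.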
